A study of Homo sapiens with 2 samples.

Results

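The high mobility group (HMG) chromatin genes described here are the 8 genes HMGA1, HMGB1, HMGB2, HMGB3, HMGN1, HMGN2, HMGN3 and HMGN4. They were chosen by gene symbol, and the 8 symbols were found once each among 16424 listed genes. The study asked which signals M2BPGi, a glycosylated form of Mac-2 binding protein, regulates in hepatocellular carcinoma (HCC) cells. PLC/PRF/5, a human hepatoma cell line, was analysed by cap analysis of gene expression (CAGE), which sequences a short tag from the 5′ end of each capped RNA. A library was made from non-treated cells, in medium with 0 µg/ml M2BPGi, and another from M2BPGi-treated cells, in medium with 3 µg/ml M2BPGi for 6 h. Each condition has 1 library, so no difference below has a replicate check, and the values compare the 2 libraries. The libraries held 24040209 tags (non-treated) and 24862941 tags (M2BPGi-treated), read back from the deposited CPM, that is, counts scaled to the tag total of the library (counts per 1e6). Since CAGE counts 1 tag for each capped 5′ end, the level of a gene does not grow with the length of its transcript, and CPM values of different genes are compared here on that scale.

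HMG proteins are small, abundant nuclear proteins that bind DNA or nucleosomes without a long sequence motif and change how chromatin bends, folds and opens. The HMGA proteins bind AT-rich DNA with AT hooks, the HMGB proteins bend DNA with HMG boxes, and the HMGN proteins bind inside the nucleosome and compete with linker histone H1. HMGA1 and HMGB1 are known for high expression in many tumours including HCC, and HMGB1 that leaves the cell acts as an alarm signal for immune cells in the injured liver.

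The promoters of the HMG genes are shown because 7 of the 8 genes had a higher value in the M2BPGi-treated library. Of the 13724 genes with a mean of 1 CPM or more, 42.9% had a higher value there. No factor binding was measured. RefSeq (GRCh38.p14) promoter windows, 250 bases before and 50 after an annotated start, matched 7 of the 8 genes with 11 windows. HMGB2 was not matched. The following lines give the 150 bases before the start in the first window of each gene, 5′ to 3′ on the strand of the gene. Capitals mark CCAAT on either strand (ATTGG where it lies on the other strand) for HMGB1, HMGB3, HMGN1, HMGN2 and HMGN3. In HMGA1 and HMGN4, where this stretch holds no CCAAT, they mark GGGCGG or CCGCCC, the GC box on either strand.
HMGB1 promoter, chr13:30465937-30466086, minus strand: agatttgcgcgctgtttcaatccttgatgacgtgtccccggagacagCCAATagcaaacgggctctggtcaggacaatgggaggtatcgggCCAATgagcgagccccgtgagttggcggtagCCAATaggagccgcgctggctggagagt
HMGB3 promoter, chrX:150983185-150983334, plus strand: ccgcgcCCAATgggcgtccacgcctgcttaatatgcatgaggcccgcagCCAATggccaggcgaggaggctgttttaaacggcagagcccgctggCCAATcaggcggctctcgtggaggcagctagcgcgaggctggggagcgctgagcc
HMGN1 promoter, chr21:39349089-39349238, minus strand: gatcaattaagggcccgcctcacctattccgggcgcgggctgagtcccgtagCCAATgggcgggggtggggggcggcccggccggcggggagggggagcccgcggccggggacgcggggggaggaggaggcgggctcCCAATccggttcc
HMGN2 promoter, chr1:26472290-26472439, plus strand: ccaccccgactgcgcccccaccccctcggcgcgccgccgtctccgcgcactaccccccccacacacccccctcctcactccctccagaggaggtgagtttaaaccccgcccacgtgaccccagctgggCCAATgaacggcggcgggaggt
HMGN3 promoter, chr6:79234683-79234832, minus strand: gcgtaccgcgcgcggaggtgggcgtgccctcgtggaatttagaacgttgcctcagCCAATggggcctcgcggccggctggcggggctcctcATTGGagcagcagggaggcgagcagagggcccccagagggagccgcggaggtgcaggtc
HMGA1 promoter, chr6:34236723-34236872, plus strand: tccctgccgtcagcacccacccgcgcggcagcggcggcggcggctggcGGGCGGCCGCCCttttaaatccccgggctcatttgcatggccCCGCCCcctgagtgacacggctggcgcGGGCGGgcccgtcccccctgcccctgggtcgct
HMGN4 promoter, chr6:26538216-26538365, plus strand: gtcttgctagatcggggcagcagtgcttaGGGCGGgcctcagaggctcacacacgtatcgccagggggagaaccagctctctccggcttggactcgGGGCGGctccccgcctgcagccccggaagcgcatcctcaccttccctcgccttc

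The HMGB1 and HMGB3 stretches hold 3 CCAAT each, on the strand of the gene. Counted from the start, their first bases lie at -103, -59 and -28 in HMGB1 and at -144, -101 and -55 in HMGB3. HMGN1 has CCAAT at -98 and -13, and HMGN3 has it at -95 and, on the other strand, at -59. Over the whole 300-base windows, 8 of the 11 HMG windows (in 6 of the 7 matched genes) hold CCAAT, against 34.6% of 35116 promoter windows. GGGCGG is also found in 8 of the 11 windows, against 45.0% of all windows. The GC content of the 11 windows ran from 53.0 to 87.0%, and the median over all windows was 58.7%. The part of GC content in these shares was not tested. TATAAA is in 1 of the 11 (HMGN2, after the start) against 11.5%, and CACGTG in 1 of the 11 (HMGN2) against 7.26%. TTTGAA is in 2 of the 11 (of HMGB1 and HMGB3) against 15.2%, and TTTGGCGC, an E2F site, in 0 against 0.652%. With 11 windows, several from the same gene, these shares are descriptions. All motifs were searched on both strands. In HMGN2 the GGGCGG at -45 (on the other strand) and the CACGTG at -40 share a base, and in HMGN1 the CCAAT at -98 and the GGGCGG at -93 lie side by side. A match is a string of letters and not a binding site. All genes tested that have a window were grouped by the first one. Their median log2 ratio (treated over non-treated library) was -0.03 for 5511 genes without CCAAT and -0.11 for 452 genes with 3 or more. HMGB1 and HMGB3, with 3 each in the first window, had 0.26 and 0.09. The other windows of HMGB1 held 1 and 0 CCAAT and that of HMGB3 held 0. Which start gave the tags was not determined.

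HMGB1 (ENSG00000189403, chromosome 13) was the most abundant HMG gene. It had 719 CPM in the non-treated library and 859.6 CPM in the M2BPGi-treated one, and by its mean it ranked 157 among the 16424 genes. HMGB2 (ENSG00000164104, chromosome 4), a close relative best known from dividing cells, had 35.7 and 35.1 CPM. HMGB3 (ENSG00000029993, chromosome X), the third HMG-box member here, had 61.9 and 66.1 CPM. HMGB1 thus had the higher value in M2BPGi-treated cells, while the values of HMGB2 and HMGB3 lay close together.

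Among the nucleosome-binding members, HMGN1 (ENSG00000205581, chromosome 21) had 619 CPM without and 725 CPM with M2BPGi. HMGN3 (ENSG00000118418, chromosome 6) had 470.3 and 506 CPM. HMGN2 (ENSG00000198830, chromosome 1) had 276 and 312 CPM. These 3 genes all had the higher value in M2BPGi-treated cells, and the gap was smallest for HMGN3 as a share of its level. HMGN4 (ENSG00000182952, chromosome 6) had 39.8 and 49.7 CPM. HMGN4 carries the retrogene tag in GENCODE v29, that is, it arose from a copied mRNA, and its coding sequence is 86.3% identical to that of HMGN2 over 270 bases. HMGA1 (ENSG00000137309, chromosome 6), the AT-hook member, had 329 and 426 CPM.

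**Figure D1:**
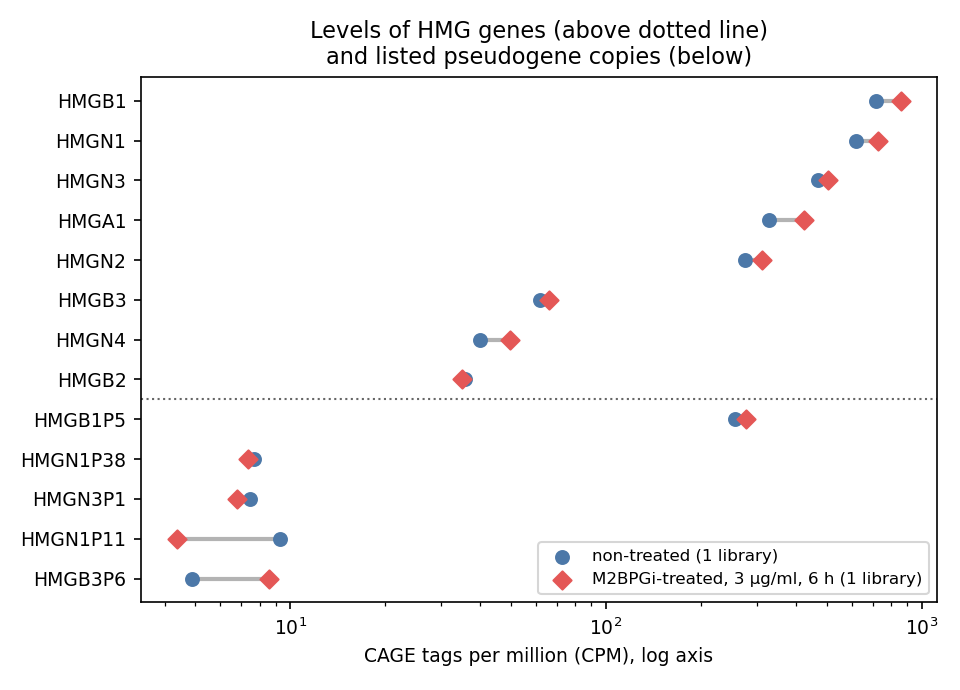
CPM on a log axis for the 8 HMG genes (above the dotted line) and their 5 listed pseudogene copies whose mean is 1 CPM or more (below), as circles for the non-treated and diamonds for the M2BPGi-treated library, with 1 library each. The HMG genes run from HMGB1 at 719 and 859.6 CPM to HMGB2 at 35.7 and 35.1 CPM, in the same order in both libraries.

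The order of the levels was the same in both libraries, namely HMGB1, HMGN1, HMGN3, HMGA1, HMGN2, HMGB3, HMGN4 and HMGB2. Every neighbour in this order was separated by more than counting error in each library. The widest step was from HMGN2 to HMGB3, 4.45-fold in non-treated and 4.72-fold in M2BPGi-treated cells. The narrowest was from HMGN4 to HMGB2 in non-treated cells, 1.11-fold with a 95% interval of 1.01 to 1.22. The spread between HMGB1 and HMGB2 was far larger than any difference of an HMG gene between the libraries. The 4 HMGN genes took 55.1% of the tags of the 8 genes in non-treated cells (95% Clopper-Pearson interval 54.7 to 55.5%) and 53.5% in M2BPGi-treated cells (53.1 to 53.8%). The 3 HMGB genes took 32.0% (31.7 to 32.4%) and 32.2% (31.9 to 32.6%), and HMGA1 took 12.9% (12.6 to 13.2%) and 14.3% (14.0 to 14.5%). The share of HMGA1 was therefore higher and that of the HMGN genes lower in M2BPGi-treated cells by more than counting error, while the intervals of the HMGB share overlapped.

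Log2 ratios (M2BPGi-treated over non-treated library) were taken after adding 1 CPM, and intervals are 95% Clopper-Pearson intervals of the log2 ratio of the tags, which cover counting error only. Of the 8 HMG genes, 7 were higher in M2BPGi-treated cells, against 42.9% of the 13724 genes tested, those whose mean over both libraries was 1 CPM or more. The exception was HMGB2, whose interval included 0. Once the libraries were rescaled so that the median gene had a log2 ratio of 0, which moves all genes alike, 8 of 8 were higher, where higher and lower genes are equally many over all genes tested by construction, with HMGB2 at 0.03 (-0.10 to 0.17). All 8 genes passed the filter on the mean. Their median log2 ratio was 0.20, and that of all genes tested was -0.05. Summed over the 8 genes, 2551 CPM without M2BPGi stood against 2979.9 CPM with it, a log2 ratio of the tags of 0.22 (interval 0.21 to 0.24). In these bulk libraries, more RNA of a gene per cell and more cells that express it cannot be told apart.

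HMGA1 had the highest log2 ratio of the 8 genes, 0.37 (interval 0.33 to 0.42), followed by HMGN4 with 0.31 (0.20 to 0.44). HMGB1 had 0.26 (0.23 to 0.29) and HMGN1 0.23 (0.20 to 0.26). HMGN2 had 0.18 (0.13 to 0.23) and HMGN3 0.11 (0.07 to 0.14). These 6 genes had an interval above 0, against 22.8% of all genes tested, and 0 of the 8 had an interval below 0, against 31.5%. HMGB3, with 0.09 (-0.01 to 0.20), and HMGB2, with -0.02 (-0.16 to 0.11), had intervals that include 0. After rescaling, the interval of HMGB3 was 0.05 to 0.25 and 7 HMG genes had an interval above 0, but so did 3877 of the 13724 genes tested, against 3125 before it. Rescaling also moved the balance of all genes, since 42.0% of the genes whose interval left out 0 were higher before it and 52.5% after it. The log2 ratio of HMGN3, the lowest of the 6 genes, was 0.16 after rescaling, outside its interval as reported. HMGA1 (0.43), HMGB1 (0.31), HMGN1 (0.28) and HMGN2 (0.24) also moved above theirs, while HMGN4 (0.37) stayed inside its own.

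**Figure D2:**
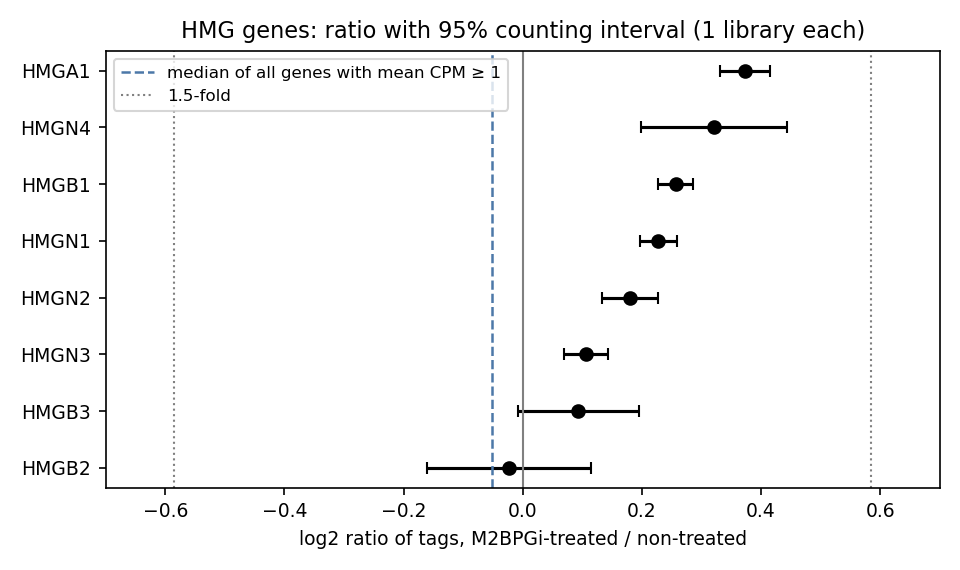
Log2 ratio of the tags of each HMG gene, M2BPGi-treated over non-treated, with its 95% Clopper-Pearson interval (counting error only, 1 library per condition). The dashed line is the median log2 ratio of all genes tested (-0.05) and the dotted lines mark a 1.5-fold difference, and the 8 genes lie between the dotted lines, with HMGA1 highest and HMGB2 lowest.

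The differences were small in size. Of the 8 HMG genes, 0 were at least 1.5-fold higher, against 1.6% of the genes tested, and 0 were at least 1.5-fold lower, against 4.04%. HMGA1, with the highest log2 ratio among them, had a CPM 1.29-fold that of non-treated cells. In absolute terms HMGB1 gained the most, 140.2 CPM, ahead of HMGN1 with 106 CPM and HMGA1 with 97.0 CPM. The HMG genes also differed among themselves. HMGA1 exceeded HMGB1 by 0.12 on the log2 scale (interval of the difference 0.06 to 0.17) and HMGN3 by 0.27 (0.21 to 0.32). Of the 28 pairs of HMG genes, 19 had an interval of the difference that left out 0. Neighbours in the order of the ratios mostly did not separate, since 1 of 7 neighbouring pairs did, HMGN2 and HMGN3, with a difference of 0.07 (0.01 to 0.13). HMGA1 and HMGN4 differed by 0.05 (-0.08 to 0.18), which counting error alone can give.

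The position of the HMG genes among all genes shifted with their level and length. HMGA1 lay at percentile 93.4 of the log2 ratios of all genes tested, HMGN4 at 90.4, HMGB1 at 86.4 and HMGB2 at 53.7. The log2 ratio of all genes, however, was higher at higher levels. Its median was -0.11 for the 2760 genes with a mean CPM from 3 to 10, 0.07 for the 1393 genes from 100 to 300 and 0.16 for the 531 genes of at least 300. The share of genes that were higher, 42.9% over all levels, was 46.2% from 30 to 100 CPM. It was 59.7% from 100 to 300 CPM and 70.1% at 300 CPM or more. HMGA1, HMGB1, HMGN1 and HMGN3 belong to the last class. Within it, HMGA1 was at percentile 82.1, HMGB1 at 63.1, HMGN1 at 57.8 and HMGN3 at 40.7. The ratios of HMGB1, HMGN1 and HMGN3 thus lay inside the quartiles of genes of like level, -0.12 to 0.32, and that of HMGA1 lay above them.

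Transcript length moved with the ratio as well. The transcripts of the 8 HMG genes, from 829 nt (HMGN1) to 2186 nt (HMGB3), are all no longer than the median of the genes tested, 2246 nt. Among genes at a mean of 300 CPM or more, the median log2 ratio was 0.21 for the 408 genes up to that length and -0.15 for the 94 longer ones. Against the shorter ones, HMGA1 was 0.16 above the median, HMGB1 0.05 above, and HMGN1 0.02 above, while HMGN3 differed from it by -0.10. HMGN2 was 0.06 above the median of short genes from 100 to 300 CPM. Among short genes from 30 to 100 CPM, whose median was 0.05, HMGN4 was 0.27 above, at percentile 88.2, while HMGB3 was 0.04 above and HMGB2 differed from it by -0.07. The part of level and length in the ratios of the HMG genes was not tested further.

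**Figure D3:**
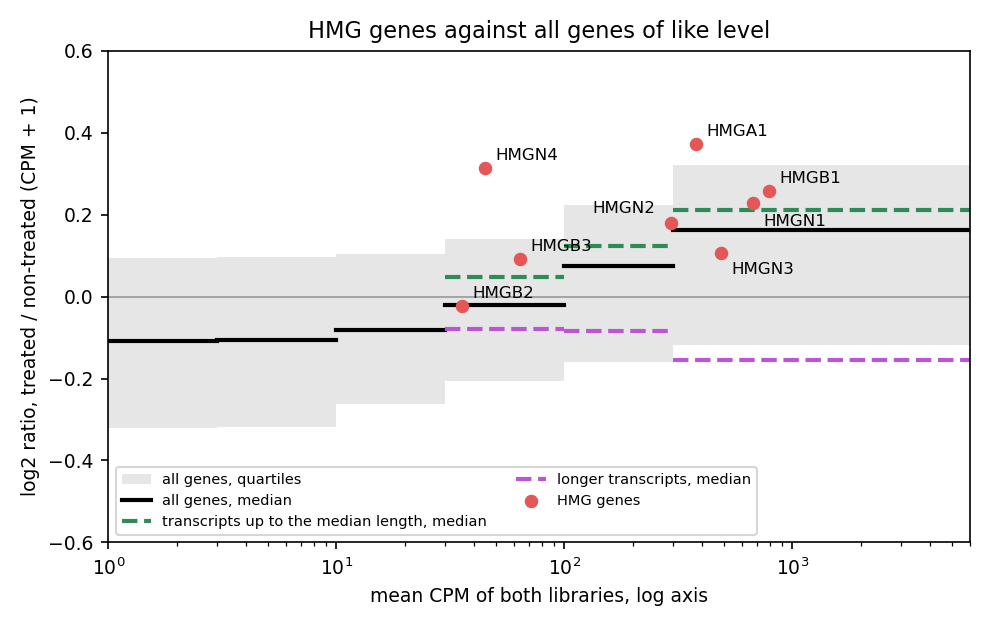
Log2 ratio of the 8 HMG genes (points) against mean CPM on a log axis, over the median (black) and quartiles (grey) of all genes tested in 6 classes of level, the last of which is drawn to the end of the axis. Dashed lines give the medians of genes with transcripts up to 2246 nt (green) and of longer ones (purple), and HMGA1 and HMGN4 lie above the upper quartile of their class.

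The genes nearest to HMGB1 in level over both libraries, by the Euclidean distance of log2(CPM + 1) over 2 libraries, were NME1-NME2, PRDX1 and RPL19, at distances of 0.0129, 0.0248 and 0.0254. NME1-NME2, a read-through transcript of nucleoside diphosphate kinase genes, had 718 and 852 CPM. PRDX1, a peroxiredoxin, had 717 and 874 CPM, and RPL19, a ribosomal protein gene, had 719 and 875 CPM. Since the distance uses both libraries, the log2 ratios of these genes are close to that of HMGB1 by the way they were chosen.

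HMG genes have many processed pseudogenes, that is, copies of their mRNAs inserted elsewhere in the genome, and tags that match a copy can be assigned to either. Of 22 listed copies of the 8 genes, 12 were at 0 in both libraries and 5 had a mean of 1 CPM or more. The largest by far was HMGB1P5 (ENSG00000132967, chromosome 3), with 257 CPM without and 278 CPM with M2BPGi. Its transcript is 97.9% identical to that of HMGB1 over 984 nt. Over the first 120 coding bases of HMGB1 the copy differs at 0 positions, so that the line below, printed without capitals, stands for both.
HMGB1 and HMGB1P5, coding bases 1 to 120 (GENCODE v29): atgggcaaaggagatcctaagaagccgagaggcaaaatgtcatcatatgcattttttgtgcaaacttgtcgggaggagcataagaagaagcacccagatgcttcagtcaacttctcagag
The alignment begins at base 1 of the HMGB1P5 transcript and at base 291 of the HMGB1 transcript that matched it best. The annotated starts of this pair of transcripts thus do not lie at the same base. Other annotated starts of HMGB1 were not compared. HMGB1P5 and the other listed copies held 26.3% of the tags of HMGB1 and its copies in non-treated cells (interval 25.8 to 26.9%) and 24.4% in M2BPGi-treated cells (23.9 to 25.0%). HMGB1P5 had a log2 ratio of 0.11 (0.06 to 0.16), below that of HMGB1. With the tags of the copies added, HMGB1 had 976 and 1138 CPM and a log2 ratio of 0.22 (0.20 to 0.25).

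The other copies were small beside their genes. HMGB3P6 had 4.87 CPM without and 8.57 CPM with M2BPGi, a log2 ratio of 0.71 (interval 0.48 to 1.15), and it is 96.8% identical to HMGB3 over 596 nt. HMGN1P11 had 9.28 and 4.38 CPM, a log2 ratio of -0.93 (-1.43 to -0.74), and it is 91.5% identical to HMGN1 over 306 nt. These copies went opposite ways, by more than counting error in each case. HMGN1P38, 98.4% identical to HMGN1 over 303 nt, had 7.65 and 7.36 CPM, and HMGN3P1, 95.3% identical to HMGN3 over 190 nt, had 7.45 and 6.80 CPM. Copies held 7.29% of the tags of HMGB3 and its copies in non-treated cells (6.06 to 8.67%) and 11.5% in M2BPGi-treated cells (10.1 to 13.0%). With the copies added, HMGB3 had a log2 ratio of the tags of 0.16 (0.06 to 0.26), which leaves out 0. For HMGN1 the share of the copies was 2.66% and 1.59%, and for HMGA1 it was 0.466% and 0.245%.

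HMGN2 and HMGN4 had the closest coding sequences among the HMG genes compared within their families. Their first 120 coding bases differ at 14 positions, shown in capitals.
HMGN2, coding bases 1 to 120 (GENCODE v29): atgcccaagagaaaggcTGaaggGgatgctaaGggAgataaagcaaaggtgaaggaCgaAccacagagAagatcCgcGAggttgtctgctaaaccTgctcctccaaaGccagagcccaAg
HMGN4, coding bases 1 to 120 (GENCODE v29): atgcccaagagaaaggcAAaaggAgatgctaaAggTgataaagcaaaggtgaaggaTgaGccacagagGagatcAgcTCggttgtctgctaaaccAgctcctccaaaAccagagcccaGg
The coding sequences of HMGB1 and HMGB2 are 76.9% identical over 628 bases, those of HMGB1 and HMGB3 72.5% over 614 bases and those of HMGB2 and HMGB3 70.9% over 619 bases. HMGN3 overlaps the antisense gene RP11-46B11.5, which had 5.32 and 3.90 CPM, and no other HMG gene overlapped a listed gene in GENCODE v29.

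HMG genes outside the 8 were described from a list of other HMG and HMG-box genes, of which 25 of 32 symbols were listed and 23 passed the filter. HMGA2, the second AT-hook gene and known from embryonic and tumour cells, had 63.6 and 79.6 CPM, a log2 ratio of 0.32 (interval 0.23 to 0.42), beside 0.37 for HMGA1. SSRP1, the HMG-box subunit of the FACT complex that opens nucleosomes, had 18.3 and 27.5 CPM (log2 ratio 0.56, 0.41 to 0.76), and SMARCE1, the HMG-box subunit of BAF remodelling complexes, had 24.3 and 32.9 CPM (0.42, 0.28 to 0.59). At the low end, PBRM1, the polybromo subunit of the PBAF complex, had 66.4 and 48.7 CPM (-0.44, -0.56 to -0.34). TCF7L2, a Wnt effector, had -0.25 and CIC, a repressor, -0.20. HMGN5, a further HMGN gene, named here after its values were seen, had 3.49 and 4.87 CPM (0.39, 0.06 to 0.90). Over the whole list 11 genes were higher and 12 lower, with a median of -0.05. Of all genes tested, 42.9% were higher, and their median was also -0.05. With the libraries rescaled, 12 genes of the list were higher and 11 lower, with a median of 0.00. Higher and lower genes are then equally many over all genes tested by construction. HMG-box genes were found at both ends of the list.

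Linker histones, which share nucleosome sites with the HMG proteins, were also examined as a list. All 6 listed linker histone genes, of 8 sought, were higher in M2BPGi-treated cells and had an interval above 0, against 42.9% and 22.8% of all genes tested, with a median log2 ratio of 0.40. HIST1H1C had 775 and 1072 CPM (log2 ratio 0.47, 0.44 to 0.50), HIST1H1B had 552 and 792 CPM (0.52, 0.49 to 0.55) and HIST1H1E had 384 and 479 CPM (0.32, 0.28 to 0.36). Among all genes at a mean of 300 CPM or more, 70.1% were higher, and those up to 2246 nt had a median of 0.21. HIST1H1C, HIST1H1B and HIST1H1E, at 642 to 754 nt, belong to that class of level and length. H1F0 had 0.39 and H1FX 0.18. HIST1H1D, named after its values were seen, had 7.11 and 9.69 CPM (0.40, 0.16 to 0.74). The ratios of 4 of the 6 genes lay above that of each of the 8 HMG genes, but the intervals of H1F0 (0.32 to 0.48) and HIST1H1D overlapped that of HMGA1 (0.33 to 0.42). Summed, the linker histone genes had 1840 CPM without and 2508 CPM with M2BPGi, a log2 ratio of 0.45 (0.43 to 0.46), while the 8 HMG genes had 0.22 (0.21 to 0.24).

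The list of histone chaperones was mostly higher. Of 19 chaperone genes, 16 were higher and 3 lower, and 10 had an interval above 0 and 1, NASP, an interval below 0, where 42.9% of all genes tested were higher and 22.8% and 31.5% had an interval above and below 0. After rescaling 18 were higher and 1 lower, with 14 intervals above 0 and 0 below it. Higher and lower genes are then equally many over all genes tested by construction. Of these 13724 genes, 3877 then had an interval above 0 and 3514 an interval below 0. The median of the chaperone genes was 0.09, less than the 0.20 of the HMG genes, and after rescaling these were 0.15 and 0.26. SSRP1, counted among the HMG-box genes too, ASF1A (0.45, 0.28 to 0.66) and ANP32B (0.34, 0.27 to 0.42) were highest, and NASP (-0.14, -0.24 to -0.05), ASF1B (-0.05) and CHAF1A (-0.01) lowest. The 16 other architectural chromatin genes went both ways, 9 higher and 7 lower, with a median of 0.01. This balance depends on the scaling, since after rescaling 11 were higher and 5 lower, with a median of 0.07. The same rescaling makes higher and lower genes equally many over all genes tested. CBX1, a heterochromatin protein, had 0.49, HDGF 0.42 and BANF1 0.28, while STAG1 had -0.36, NIPBL -0.35 and SMC1A -0.31. The cohesin genes among the 16 did not all lie this low. SMC3, STAG2 and RAD21, named after their values were seen, had -0.11, -0.02 and 0.08 with intervals that include 0. HMGA1, at 0.37 (0.33 to 0.42), was below CBX1 and HDGF and above BANF1, but its interval overlapped those of HDGF and BANF1.

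HMGB1 acts outside the cell through receptors, which were looked at as a list. Of 12 receptor and partner genes, 7 symbols were listed, and AGER, TLR2, TLR4, CD24 and THBD were not. Of the 7 tested, 3 were higher and 4 lower, with a median of -0.03. This is close to all genes tested, of which 42.9% were higher, with a median of -0.05. Rescaling gave 5 higher and 2 lower, with a median of 0.02. Over all genes tested, higher and lower genes are then equally many by construction. TLR9 had 20.2 and 22.0 CPM in its main entry (log2 ratio 0.12, -0.05 to 0.31), its adaptor MYD88 had 12.7 and 13.8 CPM (0.11, -0.11 to 0.35), and HAVCR2, which encodes TIM-3, had 24.8 and 26.3 CPM (0.08, -0.07 to 0.25). CXCL12, the chemokine that binds HMGB1, had -0.03 (-0.29 to 0.21), and the proteoglycan gene SDC1 had -0.05 (-0.19 to 0.09). XPO1, the nuclear export receptor, had 194 and 161 CPM (-0.27, -0.33 to -0.21). HMGB1 itself, at 0.26 (0.23 to 0.29), was above each of these genes, but the intervals of TLR9, MYD88 and HAVCR2 overlapped its own.

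**Figure D4:**
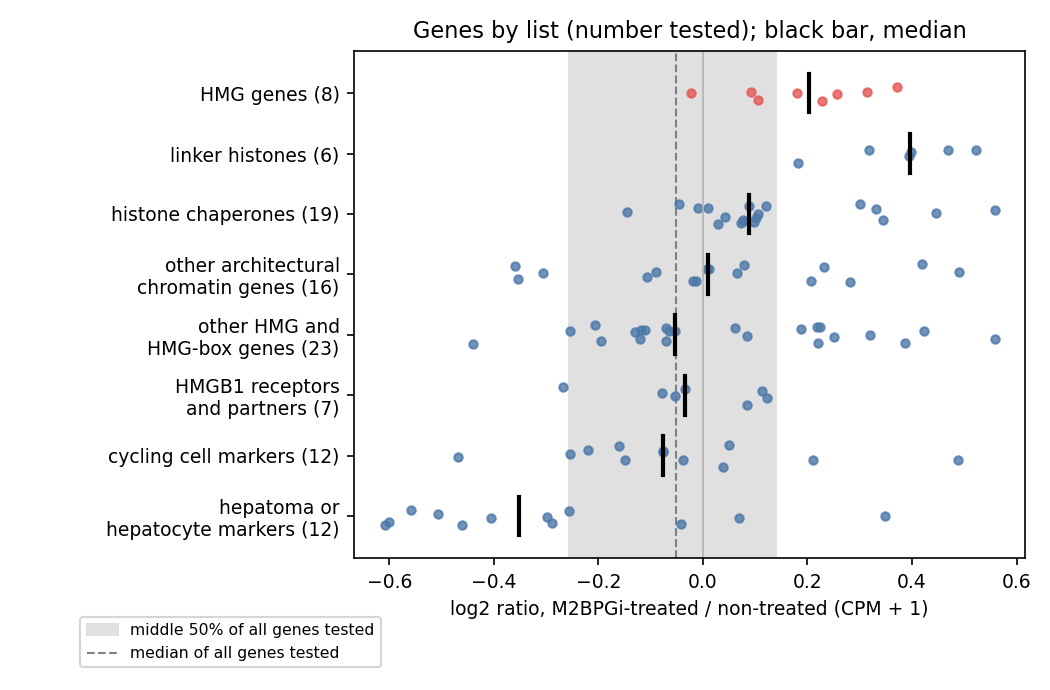
Log2 ratio of each tested gene in the HMG genes (red) and in 7 other lists (blue), with the number tested in brackets and the median as a black bar. The grey band holds the middle 50% of all genes tested around their median of -0.05, and the median of the HMG genes, 0.20, lies below that of the linker histones, 0.40, and above those of the other 6 lists.

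HMGB2 is best known from cycling cells, so 12 cycling cell markers were set beside the HMG genes. Of these, 4 were higher and 8 lower in M2BPGi-treated cells, with 2 intervals above 0 and 7 below 0 and a median of -0.08. Among all genes tested, 42.9% were higher, and 22.8% and 31.5% had an interval above and below 0. After rescaling, 5 of the markers were higher and 7 lower, with 3 intervals above 0 and 5 below 0 and a median of -0.02. Higher and lower genes are then equally many over all genes tested by construction. Of these 13724 genes, 3877 then had an interval above 0 and 3514 had one below 0. BIRC5 (0.49), TYMS (0.21) and PCNA (0.05) were highest, and MKI67 (-0.47), TOP2A (-0.25) and MCM3 (-0.22) lowest. Summed, these markers had 1109 CPM without and 1077 CPM with M2BPGi, while the 8 HMG genes had 2551 and 2979.9 CPM.

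The labelled cell type was checked against markers. Of 13 hepatoma or hepatocyte markers, 12 were listed, with a sum of 4537 CPM without and 4152 CPM with M2BPGi. KRT18 was the most abundant, with 1249.8 and 1592 CPM (log2 ratio 0.35, 0.33 to 0.37), and KRT8 had 835 and 811 CPM (-0.04). FGB had 950.0 and 623 CPM (-0.61), SERPINA1 had 671 and 455 CPM (-0.56), and APOH had 34.5 and 24.0 CPM (-0.51). AFP, the fetal liver marker, had 695 and 566 CPM, and GPC3 had 62.5 and 52.2 CPM (-0.26). APOB had 15.6 and 11.1 CPM. ALB was low, with 8.82 and 7.04 CPM, and AHSG was not listed. Also low were TF with 6.61 and 4.02 CPM, APOA1 with 4.37 and 4.63 CPM and TTR with 3.62 and 2.49 CPM. The list was lower in M2BPGi-treated cells in 10 of 12 genes, with a median of -0.35 (9 of 12 and -0.30 after rescaling). Among the 13724 genes tested, 7826 were lower and 42.9% higher, and 7 of 8 HMG genes were higher. After rescaling, higher and lower genes are equally many over all genes tested by construction, and 8 of 8 HMG genes were higher. The part of this list in the HMG values was not tested. Markers of other cells were low, at 0 or not listed, and COL3A1 among them was near the level of APOA1 and TTR. PTPRC and CSF1R were listed at 0, which allows up to 0.125 CPM in the first and 0.121 CPM in the second library, COL1A1 had 0.67 and 0.76 CPM, COL3A1 had 4.53 and 3.42 CPM, and the 4 endothelial markers were not listed.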

How the data were processed

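CAGE libraries of non-treated and M2BPGi-treated PLC/PRF/5 cells (1 each) were analysed. The authors discarded ribosomal tags, mapped the rest and clustered 5′ ends with CAGEr, and deposited 1 CPM value per gene and library, rounded to 2 decimals. The submitters' processing notes name BWA, HISAT2 and hg19, while the methods of the study name a mouse genome, although the gene identifiers are human. The rule that tied tags to genes is not given in the sources used here, nor is the handling of tags that match several copies.

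The number of tags per gene was recovered from the steps in its CPM. Within a rounding of 0.005 CPM, 100% of values above 0 were whole tags in both libraries. Among values of at most 20 tags, 87.6% (non-treated) and 94.1% (M2BPGi-treated) lay within 0.1 tag of a whole number, so intervals, above all for low genes of the non-treated library, rest on this reading. A count of 0 allows up to 3 tags.

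Log2 ratios used a pseudocount of 1 CPM, which understates changes of low genes, and genes with a mean of 1 CPM or more were tested. Intervals are 95% Clopper-Pearson intervals of tags, and intervals of differences between genes are approximate ones from the tag counts on the log scale. An exact binomial test with Benjamini-Hochberg adjustment over 13724 genes was an alternative and compares the libraries only. At an adjusted p under 0.05 it called 20.8% of genes higher and 28.4% lower. The read-back and the intervals were tested on simulated data, but no outcome of that test is given here. Transcript lengths are medians over GENCODE v29 basic transcripts, found by identifier for 13271 of the genes tested. Identity was searched with BLAST+ 2.17.0. Python 3.11.15, numpy 2.4.6, pandas 2.3.3, scipy 1.17.1 and matplotlib 3.10.9 were used.

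The HMG genes and the 10 lists were chosen with earlier results of these data known. Named genes were the 8 HMG genes, listed copies at a mean of 1 CPM or more, the 3 highest and 3 lowest genes of each list at a mean of 10 CPM or more (all where 6 or fewer), and the 3 genes nearest to HMGB1. AFP, ALB, APOB, TF, APOA1 and TTR, and the markers at or near 0 or not listed, were named after their values were seen.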

Additional observations from a re-analysis of the deposited data

How the results depend on the processing

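No paired analysis was possible because there is 1 library per condition, and for the same reason no library could be left out. The median log2 ratio of the 8 HMG genes, 0.20, was 0.26 both with the libraries rescaled to a median log2 ratio of 0 over all genes and with a trimmed mean of the log ratios, and the log2 ratio of their summed tags, 0.22, was 0.28 and 0.29. These scalings multiply the treated library by 1.04, which raises each ratio by construction. With them 8 HMG genes were higher in place of 7. After rescaling, higher and lower genes are equally many over all genes tested by construction. Under the trimmed mean, 50.4% of all genes tested were higher. Of the genes whose interval left out 0, 53.2% were higher under the trimmed mean. The trimmed mean was chosen after seeing the data, in place of the TMM factors of edgeR, which were not run. With pseudocounts of 0.1 and 5 CPM, other filters, or pseudogene copies added, the median was 0.20 each time, and 0 HMG genes were 1.5-fold different in any setting. The adjusted binomial test called 6 HMG genes higher and 0 lower, against 20.8% and 28.4% of all genes tested. Over all genes, 219 were at least 1.5-fold higher and 555 lower. The balance was more even after scaling, with 304 and 435 for the rescaled libraries and 311 and 422 for the trimmed mean. The counts were 336 and 856 with a pseudocount of 0.1 CPM, 91 and 164 with 5 CPM, since adding more to low values brings their ratios nearer to 0, and 135 and 223 with a filter at a mean of 10 CPM, where fewer genes are tested. Of 40 values of single HMG genes under an alternative, 29 stayed inside the counting interval and 11 moved outside it with the same sign. Depth limits HMGB2, HMGB3 and HMGN4 most, and the missing replicates limit each comparison.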
